A study of Mus musculus with 11 samples.

Results

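The endothelial cell genes described here were 44 genes listed by name, of 55536 Ensembl gene IDs counted in each of 11 libraries. They are genes of vascular and lymphatic endothelium by their known roles. Each was found under a single ID, and all 44 were among the 20307 genes that passed the filter on low counts. RNA came from epidermal cells released with thermolysin from the dorsal skin of male *CD4Cre* *R26-tdT* mice on the C57Bl6/N background and sorted by FACS into CD49f+CD34+ cells with or without SCA-1 and with or without tdTomato (tdT). All groups carried both alleles. Cre under *Cd4* control switched on tdT in cells that expressed *Cd4* and in their progeny, so that tdT marked a history of *Cd4* expression and not present expression. There were 3 libraries of tdT+ and 3 of tdTneg CD49f+CD34+SCA-1neg cells, the bulge population (SCA-1neg cells below). There were 3 libraries of tdT+ and 2 of tdTneg CD49f+CD34+SCA-1+ cells (SCA-1+ cells below). Each library pooled 2 mice, aged 29 weeks in every replicate 1 and 32 weeks in every other replicate. The antibodies named for this sort were against CD49f, CD34 and SCA-1, and none was named for the removal of endothelial cells or leukocytes.

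Blood vessels are lined by endothelial cells, which hold to each other through PECAM1 and VE-cadherin, answer VEGF and angiopoietin through receptor tyrosine kinases, and keep their identity through ETS, SOX and bHLH transcription factors. Lymphatic vessels are lined by a related cell that PROX1 specifies. In skin, the vessels lie in the dermis and run close to the bulge and the upper hair follicle, while the epidermis itself holds none. CD34, SCA-1 and CD49f, the 3 proteins of the sort, are each also carried by endothelial cells, and *Cd34* was kept in the list because it marks both endothelium and bulge.

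Promoters are shown for 5 genes that stand for the patterns described below. *Eng*, *Flt1* and *Aqp1* were high in SCA-1+ tdTneg cells, *Rgcc* was highest in SCA-1+ tdT+ cells, and *Prox1* is lymphatic. The windows are from RefSeq on GRCm38.p6, run 5′ to 3′ on the gene's strand, and hold the 250 bases before the annotated start, or 240 bases for *Rgcc*, where the rest lay inside the gene model. Capitals mark the ETS core letters AGGAAG or CGGAAG on either strand.
Eng: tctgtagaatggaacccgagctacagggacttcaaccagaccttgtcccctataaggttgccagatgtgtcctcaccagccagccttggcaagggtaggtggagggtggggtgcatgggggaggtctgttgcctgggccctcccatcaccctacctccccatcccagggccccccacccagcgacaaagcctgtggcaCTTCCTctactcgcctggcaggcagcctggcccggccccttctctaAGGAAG
Flt1: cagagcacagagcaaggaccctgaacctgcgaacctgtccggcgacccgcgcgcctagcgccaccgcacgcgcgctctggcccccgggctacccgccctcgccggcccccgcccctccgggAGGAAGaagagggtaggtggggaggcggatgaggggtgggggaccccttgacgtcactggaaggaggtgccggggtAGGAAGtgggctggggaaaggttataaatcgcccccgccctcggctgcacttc
Aqp1: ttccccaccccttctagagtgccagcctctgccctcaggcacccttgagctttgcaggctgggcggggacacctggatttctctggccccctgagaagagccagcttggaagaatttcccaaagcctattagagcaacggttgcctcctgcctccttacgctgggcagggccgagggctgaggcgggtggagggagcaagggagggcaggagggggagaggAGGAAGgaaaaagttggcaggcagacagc
Rgcc: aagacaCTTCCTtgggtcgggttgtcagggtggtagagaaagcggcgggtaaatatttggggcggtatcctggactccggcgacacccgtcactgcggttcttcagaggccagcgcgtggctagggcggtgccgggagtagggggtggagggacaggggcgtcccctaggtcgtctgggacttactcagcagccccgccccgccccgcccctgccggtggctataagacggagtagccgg
Prox1: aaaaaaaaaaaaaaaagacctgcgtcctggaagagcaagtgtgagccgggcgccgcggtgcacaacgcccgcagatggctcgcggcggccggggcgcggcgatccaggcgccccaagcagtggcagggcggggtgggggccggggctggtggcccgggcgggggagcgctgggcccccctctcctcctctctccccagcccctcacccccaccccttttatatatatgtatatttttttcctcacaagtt
These windows lie at chr2:32646345-32646594 (plus strand) for *Eng*, chr5:147726012-147726261 (minus strand) for *Flt1*, chr6:55336049-55336298 (plus strand) for *Aqp1*, chr14:79301646-79301885 (minus strand) for *Rgcc* and chr1:190170828-190171077 (minus strand) for *Prox1*, the second of its 2 windows. *Eng* held 2 matches, which began 52 and 6 bases before the start, *Flt1* held 2 (129 and 53 bases before), *Aqp1* 1 (29 bases before), *Rgcc* 1 (244 bases before) and *Prox1* none. RefSeq windows were matched for 24 of the 44 genes, with 31 windows in all, and 14 of them (45.2%) held AGGAAG or CGGAAG, beside 39.2% of all 32851 windows. AGGAAG alone stood in 13 of the 31 (41.9%, beside 29.5% of all), CGGAAG in 2 (6.45%, beside 13.6%), the GATA letters AGATAA in 4 (12.9%, beside 9.99%), the SOX letters ACAAAG in 5 (16.1%, beside 16.5%) and ACAATG in 3 (9.68%, beside 10.7%), and the E-box CAGCTG in 2 (6.45%, beside 13%). Both strands were searched, and the motifs could overlap. Such matches describe letters only. The 20 genes without a window were *Pecam1*, *Cdh5*, *Esam*, *Plvap*, *Ptprb*, *Ecscr*, *Cd93*, *Mmrn2*, *Vwf*, *Ramp2*, *S1pr1*, *Nos3*, *Sox7*, *Sox17*, *Sox18*, *Tcf15*, *Fli1*, *Gpihbp1*, *Fabp4* and *Lyve1*.

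Total counts ran from 17409131 to 46542177 per library, and levels are given as CPM after TMM scaling of the library totals (normalized CPM). *Krt5* and *Krt14*, the keratins of basal keratinocytes, lay between 8200 and 16200 and between 2610 and 14600 normalized CPM, so that every library held keratinocyte RNA. 1 library stood apart from its group in a row that names no Ensembl gene and whose identity is not stated in the sources used here. That row was at 133 to 307 CPM in 5 of the 6 tdT+ libraries and at 2.54 to 4.89 in the 5 tdTneg libraries, but at 2.05 in the library labelled tdT+ SCA-1neg replicate 2. Its T cell gene *Cd3e*, at 7.86, was above the tdTneg SCA-1neg libraries (0.317 to 0.829), as were the other tdT+ SCA-1neg libraries (3.48 and 6.39). The tdTneg SCA-1+ libraries were higher still, at 9.77 and 12.6, so *Cd3e* did not separate tdT+ from tdTneg libraries across the sorts. The other listed T cell genes were also above the tdTneg SCA-1neg libraries in that library, except *Lck*, at 4.87 against up to 5.09. Whether the label is right was not tested. Results that rest on that library are given with and without it. The counting was not stated to use strand, and exons of *Ramp2* share 1103 bases with *Vps25*, those of *Rasip1* 654 bases with *Izumo1* and those of *Egfl7* 264 bases with *Gm20532*. Exons of *Nos3* share 1040 bases with the antisense gene *Gm15587*, and those of *Sox17* 804 bases with *Gm37587* on the opposite strand. The values of these genes may therefore include or lack reads of a neighbour.

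The endothelial cell genes shared 1 pattern, with high values in the 2 SCA-1+ tdTneg libraries. The 43 genes other than *Cd34* summed to 10700 and 11200 normalized CPM there, or 1.12% and 1.13% of all counts. The same sum was 267 to 475 in SCA-1+ tdT+ libraries, 162 to 551 in SCA-1neg tdTneg libraries and 88.5 to 563 in SCA-1neg tdT+ replicates 1 and 3. The library labelled tdT+ SCA-1neg replicate 2 lay between, at 2750. For 35 of the 44 genes both SCA-1+ tdTneg libraries were above all 9 others, which held for 4.79% of all genes tested. In 34 of these 35 the next highest library was the one labelled tdT+ SCA-1neg replicate 2, and in *Sox7* it was SCA-1+ tdT+ replicate 1. How often that library came next among all genes was not counted. The 9 genes outside this order were *Cd34*, *Cldn5*, *Notch4*, *Rgcc*, *Gpihbp1*, *Aqp7*, *Lyve1*, *Prox1* and *Flt4*. The difference stood at both ages: at 29 weeks the sum was 10700 in tdTneg and 267 in tdT+ SCA-1+ cells, and at 32 weeks it was 11200 against 475 and 462. In bulk RNA, fewer cells of a type and less of its RNA per cell cannot be told apart.

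**Figure D1:**
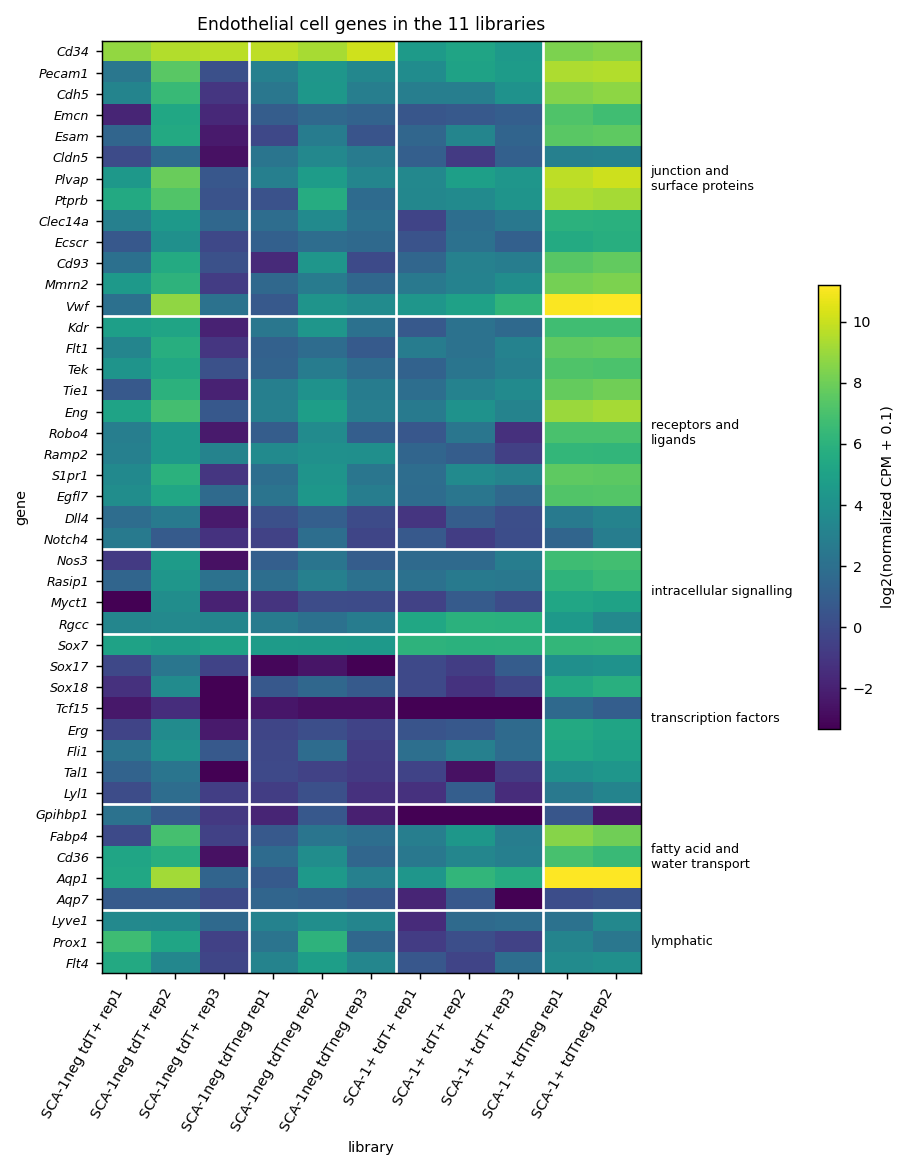
Level of each of the 44 endothelial cell genes (rows, grouped by role) in each of the 11 libraries (columns, grouped by sort), as log2(normalized CPM + 0.1). Most rows are brightest in the 2 SCA-1+ tdTneg columns and next brightest in the column of the library labelled tdT+ SCA-1neg replicate 2, while *Cd34*, *Rgcc* and the lymphatic genes follow other patterns.

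Of the 13 junction and surface proteins, 11 were highest in both SCA-1+ tdTneg libraries, and *Cd34* and *Cldn5* were not. Per kb of gene model, *Plvap* had the highest level of these in SCA-1+ tdTneg cells, at 483 normalized CPM per kb, followed by *Vwf* at 141, *Pecam1* at 114 and *Cdh5* at 93.3. *Vwf* (chr6:125546774-125686679, plus strand, GRCm38), the clotting protein stored in endothelial granules, was at 2190 and 2340 normalized CPM in SCA-1+ tdTneg cells, 19.5, 31.8 and 73.5 in SCA-1+ tdT+ cells, 1.55, 18 and 12.5 in SCA-1neg tdTneg cells and 4.07, 432 and 4.29 in SCA-1neg tdT+ cells. Both SCA-1+ tdTneg libraries stood above all others, and within the SCA-1neg tdT+ group only replicate 2 was above 5 normalized CPM. *Pecam1* (chr11:106654217-106750628, minus strand), the adhesion molecule CD31, had 688 and 727 normalized CPM in the SCA-1+ tdTneg libraries, against 13.3, 32.9 and 25.3 in SCA-1+ tdT+, 7.97, 19.5 and 10.3 in SCA-1neg tdTneg and 5.2, 175 and 1.05 in SCA-1neg tdT+ libraries. *Plvap* (chr8:71497765-71511752, minus strand), which forms the diaphragms of endothelial pores and caveolae, measured 846 and 1070 normalized CPM in SCA-1+ tdTneg cells, 11, 29.7 and 19.7 in SCA-1+ tdT+ cells, 7.58, 25.7 and 9.58 in SCA-1neg tdTneg cells and 21.5, 236 and 1.43 in SCA-1neg tdT+ cells. The 2 SCA-1+ tdTneg libraries overlapped with no other group in any of the 3 genes. *Cdh5*, which encodes VE-cadherin, had a mean of 392 ± 40.4 (SD, n = 2) in SCA-1+ tdTneg and 10.5 ± 5.61 (SD, n = 3) in SCA-1+ tdT+ cells. The sialomucin *Emcn* was at 128 ± 30.5 against 1.6 ± 0.281, and the junction protein *Esam* at 185 ± 14.5 against 4.98 ± 4.14. The remaining genes of this kind ran from *Cldn5*, the tight junction protein best known from brain vessels, at 8.26 ± 0.455, to *Ptprb*, the phosphatase VE-PTP, at 636 ± 43.7 in SCA-1+ tdTneg cells. *Cldn5* was the odd one: its SCA-1neg tdTneg libraries, at 4.85, 10.7 and 6.44, overlapped with the 7.94 and 8.58 of SCA-1+ tdTneg cells.

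The receptors and ligands gave the same picture, with 10 of 11 highest in both SCA-1+ tdTneg libraries. *Eng* (chr2:32646595-32682669, plus strand), a co-receptor of the TGF-beta family, was at 506 and 602 normalized CPM in SCA-1+ tdTneg cells, 6.34, 16.7 and 9.02 in SCA-1+ tdT+ cells, 7.76, 27.7 and 7.24 in SCA-1neg tdTneg cells and 34.5, 117 and 1.49 in SCA-1neg tdT+ cells. *Tie1* (chr4:118471191-118490061, minus strand), the partner of the angiopoietin receptor, had 217 and 269 normalized CPM in the SCA-1+ tdTneg libraries, against 3.7, 8.51 and 12.3 in SCA-1+ tdT+, 7.52, 16.9 and 6.61 in SCA-1neg tdTneg and 1.54, 63.3 and 0.165 in SCA-1neg tdT+ libraries. *S1pr1* (chr3:115710433-115715072, minus strand), a receptor of sphingosine 1-phosphate, measured 196 and 188 normalized CPM in SCA-1+ tdTneg cells, 3.59, 12.3 and 9.02 in SCA-1+ tdT+ cells, 3.68, 18.3 and 5.05 in SCA-1neg tdTneg cells and 11.7, 62.5 and 0.385 in SCA-1neg tdT+ cells. In all 3, SCA-1+ tdTneg cells were apart from every other library, and replicate 3 of SCA-1neg tdT+ cells was the lowest of all 11. *Egfl7* (chr2:26580014-26593120, plus strand), a secreted endothelial factor, was at 152 and 159 normalized CPM in SCA-1+ tdTneg cells, 3.44, 5.16 and 2.94 in SCA-1+ tdT+ cells, 4.75, 20.5 and 7.07 in SCA-1neg tdTneg cells and 13.5, 38.9 and 3.14 in SCA-1neg tdT+ cells. It fell in SCA-1+ tdT+ against SCA-1+ tdTneg cells, with a log2 fold change of -5.34 (SE 0.93, adjusted p = 0.0158), and was higher in SCA-1+ than in SCA-1neg cells among tdTneg cells, with a log2 fold change of 3.85 (SE 0.87, adjusted p = 0.0327). *Tek*, the angiopoietin receptor TIE2, passed in both comparisons as well, at 141 ± 11 (SD, n = 2) in SCA-1+ tdTneg, 4.92 ± 2.59 (n = 3) in SCA-1+ tdT+ and 4.15 ± 2.28 (n = 3) in SCA-1neg tdTneg cells, with log2 fold changes of -4.85 (SE 1.07, adjusted p = 0.0453) and 5.08 (SE 1.08, adjusted p = 0.0264). The tdT calls of *Egfl7* and *Tek* were kept in 6 and 3 of 11 fits that left out a library and the SCA-1 calls in 5 and 7, and with the replicate number as a block the tdT call of *Tek* was lost (adjusted p = 0.107). *Ramp2*, which turns the calcitonin receptor-like receptor into the adrenomedullin receptor, was at 76.4 ± 2.55 in SCA-1+ tdTneg, 1.65 ± 1.01 in SCA-1+ tdT+, 14.1 ± 1.83 in SCA-1neg tdTneg and 13.2 ± 8.27 in SCA-1neg tdT+ cells. Its log2 fold change of -5.51 (SE 0.62, adjusted p = 0.00183) between tdT+ and tdTneg SCA-1+ cells was the best supported after *Cd34*, and both genes' calls there were kept in 11 of 11 fits that left out 1 library. The VEGF receptors *Kdr* and *Flt1* were at 106 ± 0.065 and 206 ± 12 in SCA-1+ tdTneg and at 2.96 ± 1.34 and 6.54 ± 2.15 in SCA-1+ tdT+ cells. The Notch ligand *Dll4*, which marks tip cells and arteries, and the receptor *Notch4* were low throughout, at most at 8.87 and 7.12, and *Notch4* in SCA-1neg tdT+ replicate 1, at 6.33, was inside the SCA-1+ tdTneg values of 2.53 and 7.12.

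Of the 4 genes of intracellular signalling, 3 followed the pattern and *Rgcc* ran against it. *Nos3* (chr5:24364810-24384474, plus strand), the endothelial nitric oxide synthase, had 104 and 113 normalized CPM in the SCA-1+ tdTneg libraries, against 3.14, 3.12 and 7.01 in SCA-1+ tdT+, 2, 4.98 and 1.88 in SCA-1neg tdTneg and 0.452, 25.2 and 0.0551 in SCA-1neg tdT+ libraries. *Rasip1* (chr7:45627488-45639093, plus strand), a RAS-interacting protein needed for vessel lumens, measured 69.6 and 86.4 normalized CPM in SCA-1+ tdTneg cells, 4.13, 6.24 and 5.57 in SCA-1+ tdT+ cells, 3.63, 7.97 and 4.19 in SCA-1neg tdTneg cells and 2.58, 19.8 and 4.29 in SCA-1neg tdT+ cells. *Myct1* (chr10:5593775-5606904, plus strand) was at 38.4 and 33.1 normalized CPM in SCA-1+ tdTneg cells, 0.639, 1.7 and 0.928 in SCA-1+ tdT+ cells, 0.351, 0.95 and 0.878 in SCA-1neg tdTneg cells and 0, 13.8 and 0.165 in SCA-1neg tdT+ cells. None of the 3 overlapped between SCA-1+ tdTneg cells and any other group, and *Rasip1* passed the test in both comparisons, with a log2 fold change of -3.88 (SE 0.74, adjusted p = 0.0259) for tdT+ against tdTneg SCA-1+ cells and a log2 fold change of 3.89 (SE 0.74, adjusted p = 0.0176) for SCA-1+ against SCA-1neg tdTneg cells. *Rgcc* (chr14:79288756-79301645, minus strand), a regulator of the cell cycle that capillary endothelium and other cells express, had 23.1 and 11.2 normalized CPM in the SCA-1+ tdTneg libraries, against 39.4, 61.6 and 58.5 in SCA-1+ tdT+, 6.46, 4.11 and 6.7 in SCA-1neg tdTneg and 9.86, 11.3 and 9.75 in SCA-1neg tdT+ libraries. All 3 SCA-1+ tdT+ libraries were above every other library. *Rgcc* was the single listed gene that rose with tdT in SCA-1+ cells, with a log2 fold change of 1.63 (SE 0.36, adjusted p = 0.0434), and it also rose with SCA-1 among tdT+ cells, with a log2 fold change of 2.36 (SE 0.32, adjusted p = 0.00167). The first call was kept in 3 of 11 fits that left out a library and lost with the replicate block (adjusted p = 0.089), and the second was kept in all 11.

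The 8 transcription factors were lower in level, and 7 of them were low outside the SCA-1+ tdTneg libraries and the library labelled tdT+ SCA-1neg replicate 2. *Sox18* (chr2:181669836-181671640, minus strand), a SOX factor of early blood and lymphatic vessels, measured 43.2 and 56 normalized CPM in SCA-1+ tdTneg cells, 0.826, 0.34 and 0.722 in SCA-1+ tdT+ cells, 1.47, 2.82 and 1.66 in SCA-1neg tdTneg cells and 0.317, 12.5 and 0 in SCA-1neg tdT+ cells. *Erg* (chr16:95359169-95586593, minus strand), the ETS factor that maintains junctional genes, was at 45.6 and 34.9 normalized CPM in SCA-1+ tdTneg cells, 1.28, 1.48 and 3.09 in SCA-1+ tdT+ cells, 0.723, 1 and 0.658 in SCA-1neg tdTneg cells and 0.678, 12.7 and 0.11 in SCA-1neg tdT+ cells. *Fli1* (chr9:32422204-32542861, minus strand), an ETS factor of endothelium and blood cells, had 38 and 31.1 normalized CPM in the SCA-1+ tdTneg libraries, against 3.81, 7.89 and 3.35 in SCA-1+ tdT+, 0.785, 3.46 and 0.512 in SCA-1neg tdTneg and 4.75, 16.8 and 1.54 in SCA-1neg tdT+ libraries. In each of these genes the SCA-1+ tdTneg libraries were the highest and the library labelled tdT+ SCA-1neg replicate 2 the next. *Sox17*, an arterial factor, was at 15.7 ± 1.37 (SD, n = 2) in SCA-1+ tdTneg cells, 1.03 ± 0.646 (n = 3) in SCA-1+ tdT+ cells and 0.0333 ± 0.041 in SCA-1neg tdTneg cells, and it rose with SCA-1 among tdTneg cells, with a log2 fold change of 8.75 (SE 1.3, adjusted p = 0.00845). The SCA-1neg tdTneg libraries held 1, 3 and 0 counts of *Sox17*, so that this fitted value depends on the prior count and is no bound. The bHLH factors *Tal1* and *Lyl1* were at 17.9 ± 2.28 and 7.41 ± 2.48 in SCA-1+ tdTneg cells and at 0.396 ± 0.31 and 0.835 ± 0.948 in SCA-1+ tdT+ cells. *Tcf15*, a bHLH factor of capillaries that handle fatty acids, had no count in any of the 3 SCA-1+ tdT+ libraries against 3 and 1.93 normalized CPM in SCA-1+ tdTneg cells. With a floor of 3 counts per library it was at least 14.5-fold lower in tdT+ cells. Its call was kept in 4 of 11 fits that left out a library and lost with the replicate block (adjusted p = 0.091). *Sox7* (chr14:63943673-63950732, plus strand), a SOX factor of endothelium, measured 78.7 and 80.9 normalized CPM in SCA-1+ tdTneg cells, 65.5, 61.8 and 64.1 in SCA-1+ tdT+ cells, 25.2, 24.3 and 21.9 in SCA-1neg tdTneg cells and 32.2, 27.3 and 32.4 in SCA-1neg tdT+ cells. It was present in every library, and the SCA-1+ libraries of both tdT groups were above all SCA-1neg libraries. It rose in SCA-1+ cells both among tdTneg cells, with a log2 fold change of 1.75 (SE 0.13, adjusted p = 0.00258), and among tdT+ cells, with a log2 fold change of 1.06 (SE 0.12, adjusted p = 0.000794).

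**Figure D2:**
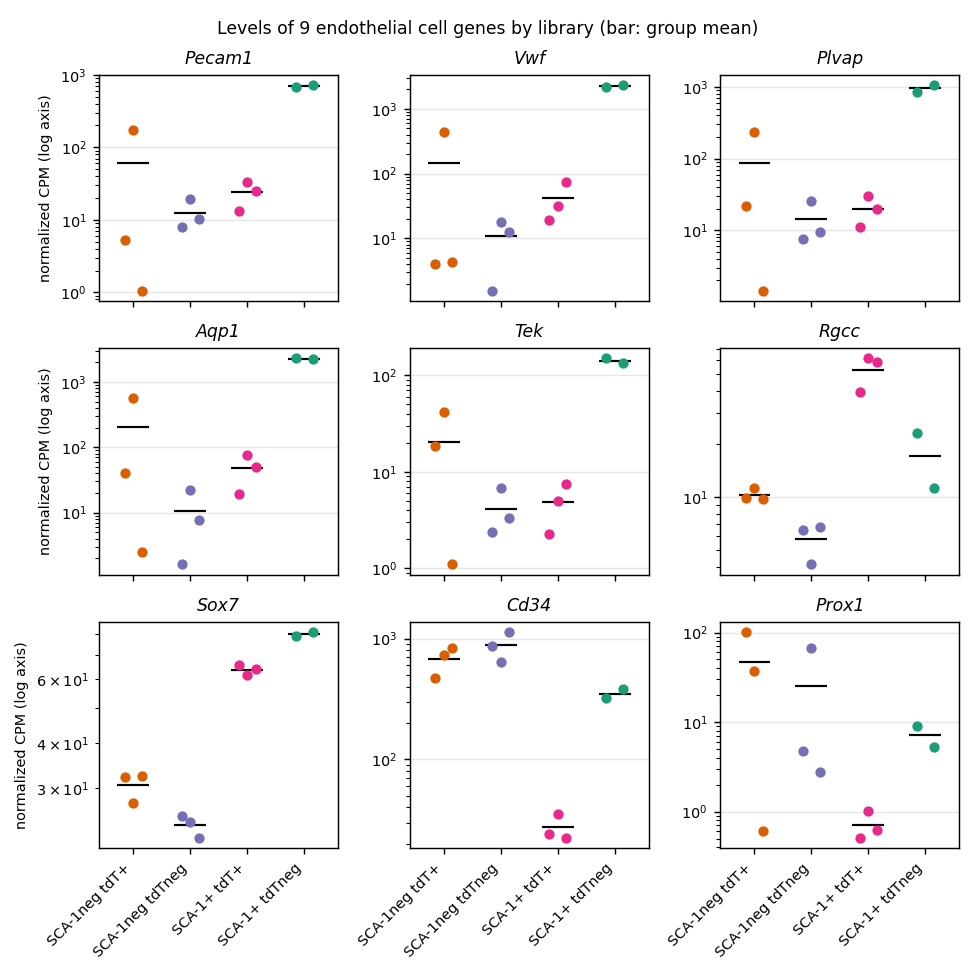
Normalized CPM (log axes that differ between panels) of 9 endothelial cell genes in the 11 libraries, 1 point per library by sorted group, with bars at the group means. *Pecam1*, *Vwf*, *Plvap*, *Aqp1* and *Tek* have 2 high points in SCA-1+ tdTneg cells and 1 in between in SCA-1neg tdT+ cells, and *Rgcc*, *Sox7*, *Cd34* and *Prox1* each follow another order.

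Among the 5 genes of fatty acid and water transport, the levels split. *Aqp1* (chr6:55336432-55348555, plus strand), the water channel of endothelium and red cells, was at 2290 and 2250 normalized CPM in SCA-1+ tdTneg cells, 19.3, 76 and 50.1 in SCA-1+ tdT+ cells, 1.61, 22.4 and 7.75 in SCA-1neg tdTneg cells and 40.7, 573 and 2.48 in SCA-1neg tdT+ cells. Per kb it was the most abundant of the 44 genes in SCA-1+ tdTneg cells, at 865 normalized CPM per kb. *Fabp4* (chr3:10204088-10208576, minus strand), the fatty acid binding protein of capillaries, adipocytes and macrophages, had 377 and 267 normalized CPM in the SCA-1+ tdTneg libraries, against 7.27, 20.1 and 6.96 in SCA-1+ tdT+, 1.57, 4.88 and 3.71 in SCA-1neg tdTneg and 0.859, 119 and 0.606 in SCA-1neg tdT+ libraries. *Cd36* (chr5:17781690-17888801, minus strand), the fatty acid translocase, measured 124 and 90.3 normalized CPM in SCA-1+ tdTneg cells, 5.49, 10 and 7.63 in SCA-1+ tdT+ cells, 3.22, 14 and 2.63 in SCA-1neg tdTneg cells and 36.9, 55.5 and 0.0551 in SCA-1neg tdT+ cells. SCA-1+ tdTneg cells were apart from all others in these 3, and SCA-1neg tdT+ replicate 1 had *Cd36* at a level near that of replicate 2 but *Fabp4* below 1. *Aqp7* (chr4:41033074-41048139, minus strand), a glycerol channel of fat and capillaries, was at 0.98 and 1.21 normalized CPM in SCA-1+ tdTneg cells, 0.186, 1.48 and 0 in SCA-1+ tdT+ cells, 2.56, 2.19 and 1.58 in SCA-1neg tdTneg cells and 1.67, 1.71 and 0.881 in SCA-1neg tdT+ cells. All of its values were low, and the 3 SCA-1neg tdTneg libraries were above all SCA-1+ libraries, while the other groups overlapped. *Gpihbp1*, which carries lipoprotein lipase into capillaries, was as low in SCA-1+ tdTneg cells, at 1.36 and 0.0837, and highest in SCA-1neg tdT+ replicate 1, at 4.25. It had no count in the 3 SCA-1+ tdT+ libraries, against 4.25, 1.66 and 0.44 in SCA-1neg tdT+ cells, and fell there with SCA-1 (adjusted p = 0.0351). This call was kept in 6 of 11 fits that left out a library and lost with the groups compared alone. The adipocyte genes, since *Fabp4* is also theirs, summed to 27 to 27.6 in SCA-1+ tdTneg, 7.24 to 10.1 in SCA-1+ tdT+ and 11.1 to 66.6 in SCA-1neg cells. In SCA-1+ tdTneg cells nearly all of it was the lipase gene *Lipe*, at 27.6 and 26.7, which fell with tdT in SCA-1+ cells (log2 fold change -1.83, adjusted p = 0.0178), and *Adipoq*, which defines adipocytes, had no count there.

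The 3 lymphatic genes did not share the pattern. *Prox1* (chr1:190118035-190170714, minus strand), the factor that specifies lymphatic endothelium, had 9.14 and 5.32 normalized CPM in the SCA-1+ tdTneg libraries, against 0.506, 1.02 and 0.619 in SCA-1+ tdT+, 4.79, 68 and 2.8 in SCA-1neg tdTneg and 101, 37.6 and 0.606 in SCA-1neg tdT+ libraries. *Flt4* (chr11:49609263-49652739, plus strand), the receptor of VEGF-C, measured 12.6 and 14.8 normalized CPM in SCA-1+ tdTneg cells, 1.46, 0.681 and 3.71 in SCA-1+ tdT+ cells, 8.88, 27.7 and 10 in SCA-1neg tdTneg cells and 44.2, 10.5 and 0.716 in SCA-1neg tdT+ cells. *Lyve1* (chr7:110850607-110863239, minus strand), the hyaluronan receptor of lymphatic endothelium and of some macrophages, was at 4.4 and 11 normalized CPM in SCA-1+ tdTneg cells, 0.24, 3.18 and 3.61 in SCA-1+ tdT+ cells, 8.63, 14.5 and 9.48 in SCA-1neg tdTneg cells and 11.4, 11.7 and 2.97 in SCA-1neg tdT+ cells. *Prox1* and *Flt4* were highest in SCA-1neg tdT+ replicate 1 and SCA-1neg tdTneg replicate 2, and SCA-1+ tdTneg cells lay inside the range of the SCA-1neg cells for all 3 genes. None of these 3 genes passed the test between SCA-1+ and SCA-1neg tdTneg cells, where the log2 fold changes were -1.8 (*Prox1*), -0.18 (*Flt4*) and -0.5 (*Lyve1*). In that comparison 1 of the 5 further lymphatic genes given below was called higher in SCA-1+ cells, beside 3.29% of all genes. Among tdT+ cells *Prox1* fell in SCA-1+ cells, with a log2 fold change of -6.04 (SE 1.73, adjusted p = 0.048), and that call was kept in 3 of 11 fits that left out a library and lost with RLE scaling, voom and the replicate block (adjusted p = 0.0953). PROX1 is not particular to lymphatic vessels. Of 5 further lymphatic genes, *Nrp2*, a co-receptor of VEGF-C, was highest in SCA-1+ tdTneg cells, at 189 and 207 against 11.1 to 61 elsewhere, *Reln* was highest in the 2 libraries with the most *Prox1*, at 38.4 and 41.6, *Mmrn1* was at 23.3 to 27.9 in SCA-1neg tdTneg cells and 19.2 and 11.2 in SCA-1+ tdTneg cells, *Pdpn* was at most at 2.10, and *Foxc2*, a factor of lymphatic valves, was highest in SCA-1+ tdTneg cells, at 2.28 and 2.6 against 0 to 0.856 elsewhere.

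*Cd34* (chr1:194938819-194961279, plus strand), whose protein the cells were sorted on, had 319 and 382 normalized CPM in the SCA-1+ tdTneg libraries, against 24.3, 35.6 and 22.3 in SCA-1+ tdT+, 863, 637 and 1130 in SCA-1neg tdTneg and 467, 734 and 841 in SCA-1neg tdT+ libraries. It was high in all SCA-1neg libraries, intermediate in SCA-1+ tdTneg cells and low in SCA-1+ tdT+ cells, with no overlap between these levels. Between tdT+ and tdTneg cells it fell in SCA-1+ cells, with a log2 fold change of -3.68 (SE 0.33, adjusted p = 0.000776), while in SCA-1neg cells the log2 fold change was -0.36 (95% interval -0.99 to 0.26, adjusted p = 0.773). Both groups of SCA-1+ cells were below the SCA-1neg cells, with a log2 fold change of -1.32 (SE 0.33, adjusted p = 0.0455) among tdTneg and a log2 fold change of -4.64 (SE 0.33, adjusted p = 0.000169) among tdT+ cells. Among tdTneg cells the call was kept in 3 of 11 fits that left out a library and was lost with RLE scaling and with the replicate block (adjusted p = 0.0771). Apart from its vascular role, CD34 marks bulge keratinocytes, and the 10 bulge genes summed to 11700 to 21900 in SCA-1neg libraries, 5680 and 7500 in SCA-1+ tdTneg libraries and 4490 to 5820 in SCA-1+ tdT+ libraries.

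The first comparison asked how SCA-1+ cells with a history of *Cd4* expression differ from SCA-1+ cells without it. The levels of 42 of the 44 genes did not overlap, with both tdTneg libraries above all 3 tdT+ libraries, which held for 17.2% of all genes tested. The exceptions were *Rgcc* and *Aqp7*. By the call of edgeR's quasi-likelihood test (Benjamini-Hochberg adjusted p under 0.05 over all genes and a change of more than 1 on the log2 scale), 6 genes fell in tdT+ cells (*Cd34*, *Tek*, *Ramp2*, *Egfl7*, *Rasip1* and *Tcf15*) and 1 rose (*Rgcc*), with 2.06% of all genes called lower and 0.251% called higher. The median log2 fold change was -4.87 over the 44 genes and 0.04 over all genes. An unadjusted p under 0.05 was given for 40 of the 44, but the share of all genes under it was not computed, so this count has no background. The fit took its spread from all 11 libraries, and 37 genes did not pass, among them *Vwf* at -5.77 (SE 1.83, adjusted p = 0.16) and *Pecam1* at -4.89 (SE 1.52, adjusted p = 0.15). The count of calls moved with the libraries in the fit. With the 5 SCA-1+ libraries alone, 36 of 43 genes tested were called, 35 of them lower, beside 4.39% of all genes called lower. Without the library labelled tdT+ SCA-1neg replicate 2 the count was 23, beside 2.45% of all genes called lower. Without tdT+ SCA-1neg replicate 3 it was 24, beside 3.1%. Without tdTneg SCA-1neg replicate 1 or 3 it was 4 (1.46% and 1.49% of all genes called lower). Without tdT+ SCA-1+ replicate 1, 2 or 3 it was 2 (1.15%, 1.78% and 1.25%). Without tdTneg SCA-1+ replicate 1 or 2 it was 3 or 2 (0.956% and 0.397%). The share over all genes thus moved with the libraries as well. In each of these fits at least 42 genes had a negative fold change. T cell genes ran the other way: 9 of them summed to 537 to 1260 in SCA-1+ tdT+ and to 191 and 202 in SCA-1+ tdTneg libraries, and 4 of the 9 rose. Bulge genes ran with the endothelial cell genes: 4 of 10 fell (*Lgr5*, *Lhx2*, *Cd200* and *Ccn2*, at -2.31, -2.69, -2.15 and -2.5), and the median was -1.8. Below 0 as well, but with none called, were 8 of 8 fibroblast genes (median -1.5), 8 of 8 platelet and erythroid genes tested (-1.96) and 6 of 7 melanocyte genes (-1.29). The fibroblast sum was 242 and 488 in tdTneg and 28.3, 346 and 29.2 in tdT+ SCA-1+ libraries. None of 12 keratinocyte genes was called, with a median of 0.45 and 3 at an unadjusted p under 0.05. Macrophage and Langerhans cell genes summed to 391 and 1080 in tdTneg and 223 to 312 in tdT+ SCA-1+ cells. The part of these lists in the fold changes was not tested.

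**Figure D3:**
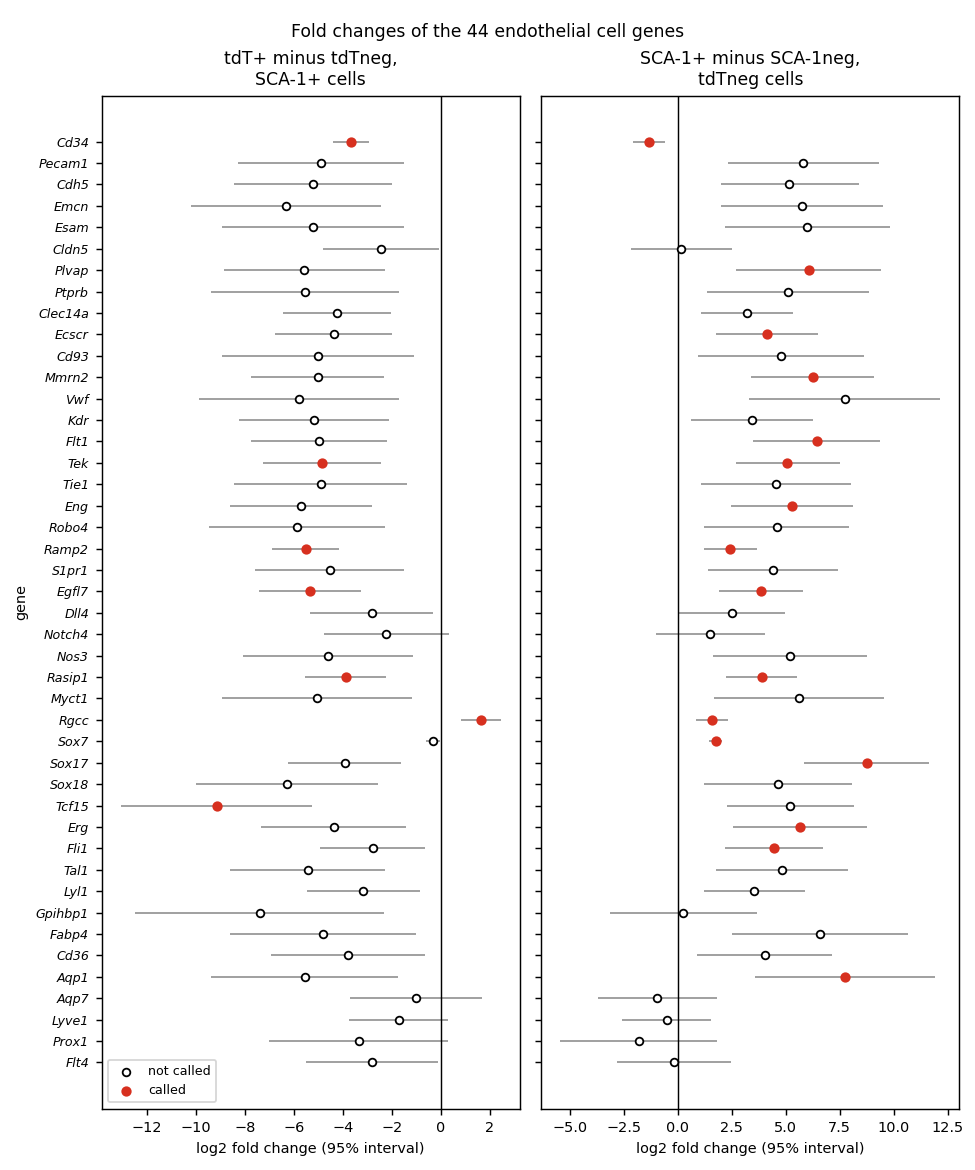
Log2 fold changes of the 44 endothelial cell genes from edgeR with approximate 95% intervals derived from its test, for tdT+ minus tdTneg SCA-1+ cells (left) and for SCA-1+ minus SCA-1neg tdTneg cells (right), with filled points for called genes. On the left 43 points lie below 0 and *Rgcc* above it, and on the right 39 lie above 0, with wide intervals in both.

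The second comparison set SCA-1+ against SCA-1neg cells without tdT, and shares its SCA-1+ tdTneg libraries with the first, so that the high values there enter both. For 36 of the 44 genes both SCA-1+ tdTneg libraries were above all 3 SCA-1neg tdTneg libraries (19.9% of all genes tested). Of the 44 genes, 15 rose in SCA-1+ cells and 1, *Cd34*, fell, beside 3.29% of all genes called higher and 1.45% called lower. By role, these were the surface proteins *Plvap*, *Ecscr* and *Mmrn2*, the receptors and ligands *Flt1*, *Tek*, *Eng*, *Ramp2* and *Egfl7*, the signalling genes *Rasip1* and *Rgcc*, the transcription factors *Sox7*, *Sox17*, *Erg* and *Fli1*, and the channel *Aqp1*. *Mmrn2*, a matrix protein of vessels, had a log2 fold change of 6.24 (SE 1.29, adjusted p = 0.0235), *Flt1* a log2 fold change of 6.43 (SE 1.32, adjusted p = 0.0233), *Eng* a log2 fold change of 5.28 (SE 1.27, adjusted p = 0.0397), and *Aqp1* a log2 fold change of 7.75 (SE 1.88, adjusted p = 0.0411). *Plvap* had a log2 fold change of 6.07 (SE 1.51, adjusted p = 0.0444), *Erg* a log2 fold change of 5.66 (SE 1.4, adjusted p = 0.0436), *Fli1* a log2 fold change of 4.45 (SE 1.02, adjusted p = 0.035) and the cell surface gene *Ecscr* a log2 fold change of 4.15 (SE 1.06, adjusted p = 0.0497). *Plvap*, *Ecscr*, *Erg*, *Aqp1* and *Eng* were each kept in 3 and *Fli1* in 5 of 11 fits that left out a library, and the first 4 of these were not called by DESeq2. With the replicate block, *Erg* (adjusted p = 0.0684), *Ramp2* (adjusted p = 0.0634) and *Cd34* were not called. The median over the 44 genes was 4.57, and over all genes -0.13. An unadjusted p under 0.05 was given for 37, again without a share over all genes. *Vwf*, at 7.73 (SE 1.99, adjusted p = 0.0512), and *Pecam1*, at 5.81 (SE 1.57, adjusted p = 0.0612), did not pass. With the replicate block *Vwf* was called and *Pecam1* was not. With the 5 tdTneg libraries alone, 34 genes were called, 33 of them higher, beside 5.27% of all genes called higher. The count was 26 without the library labelled tdT+ SCA-1neg replicate 2 and 33 without tdT+ SCA-1neg replicate 3, beside 3.67% and 4.57% of all genes called higher. It was 2 without tdTneg SCA-1neg replicate 1 or 3 (1.92% and 0.8% of all genes) and 8 without tdT+ SCA-1+ replicate 1 or 3 (2.62% and 2.66%). It was 1 without tdTneg SCA-1+ replicate 1 (0.222%) and 3 without tdTneg SCA-1+ replicate 2 (1.36%). Bulge genes fell or did not pass (3 of 10 fell), and 7 of 9 T cell genes and 1 of 8 macrophage and Langerhans cell genes rose in SCA-1+ tdTneg cells.

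In SCA-1neg cells, no endothelial cell gene was called between tdT+ and tdTneg libraries by edgeR, where 0.00985% of all genes were called higher and 0% lower. An unadjusted p under 0.05 was given for 11 genes, again without a share over all genes. DESeq2 called 1, *Sox17*, as higher, beside 1.52% of all genes it called higher. The median log2 fold change was 1.44 with 39 genes above 0. This direction rested on 1 library: without the library labelled tdT+ SCA-1neg replicate 2, 25 of the 44 genes were below 0 and none was called. The remaining tdT+ SCA-1neg libraries were unlike each other. In replicate 3, *Pecam1*, *Plvap*, *Eng*, *Tie1* and *Kdr* were at 1.05, 1.43, 1.49, 0.165 and 0.165 normalized CPM, the lowest level of all 11 libraries for each. Replicate 1 had *Kdr* at 28.8, *Ptprb* at 45.2 and *Cd36* at 36.9, but *Vwf* at 4.07 and *Emcn* at 0.181. *Rgs5*, a pericyte gene, was at 21.9 in that replicate, 7.33 in tdTneg SCA-1neg replicate 2, 3.16 in the library labelled tdT+ SCA-1neg replicate 2 and at most 0.361 in the other 8. Haemoglobin *Hbb-bs*, which marks red cells, was highest in the first 2 of these as well, at 108 and 81.4, with 0.794 to 57.1 elsewhere. The part of such cells was not tested.

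Levels were also expressed as a share of the SCA-1+ tdTneg mean. Over the 34 genes above 10 normalized CPM in SCA-1+ tdTneg cells, *Cd34* left out, the library labelled tdT+ SCA-1neg replicate 2 held a median of 26.6%, with a range of 17.7% (*Robo4*) to 76.8% (*Flt4*) and 20 genes between 10% and 30%. These genes were kept for being high in the group they are divided by, and the 9 genes left out for a low level there were spread more widely in the same library, from 10.8% (*Tcf15*) to 520% (*Prox1*). Between these were *Notch4* at 35.5%, *Cldn5* at 39.5%, *Lyl1* at 47.6%, *Dll4* at 78.1%, *Lyve1* at 152%, *Aqp7* at 156% and *Gpihbp1* at 230%. Medians in the other libraries outside SCA-1+ tdTneg were 4.75% and 0.19% in tdT+ SCA-1neg replicates 1 and 3, 1.75%, 5.41% and 1.84% in tdTneg SCA-1neg cells and 1.86%, 3.6% and 3.86% in tdT+ SCA-1+ cells. Across the 43 genes other than *Cd34*, Spearman's rho of a library with the SCA-1+ tdTneg mean was 0.95 in the library labelled tdT+ SCA-1neg replicate 2, 0.74 to 0.78 in tdT+ SCA-1+ cells, 0.22 and 0.31 in the other tdT+ SCA-1neg libraries and 0.25 to 0.54 in tdTneg SCA-1neg cells. These correlations run across genes, which are not independent replicates and differ in length and depth, and are given as a description.

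**Figure D4:**
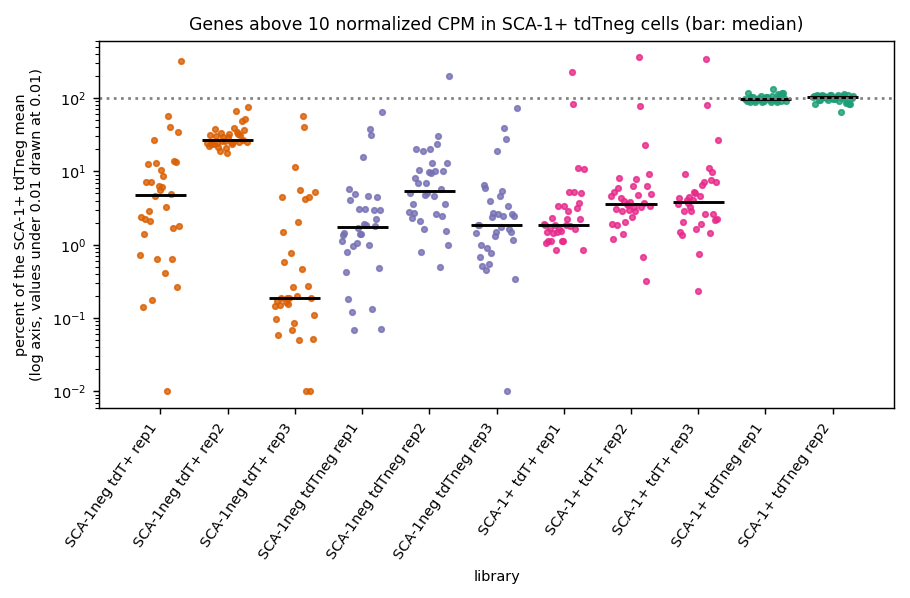
Level of each of 34 endothelial cell genes in each library as a percent of its mean in SCA-1+ tdTneg cells (log axis), 1 point per gene, with bars at the medians and a dotted line at 100. The genes were kept for being above 10 normalized CPM in SCA-1+ tdTneg cells. The points of the library labelled tdT+ SCA-1neg replicate 2 lie between 17.7% and 76.8% with a median of 26.6%, while other libraries outside SCA-1+ tdTneg have medians of 0.19% to 5.41% and a wider spread.

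Between SCA-1+ and SCA-1neg tdT+ cells, 6 endothelial cell genes were called: *Rgcc* and *Sox7* rose and *Cd34*, *Ramp2*, *Gpihbp1* and *Prox1* fell in SCA-1+ cells, beside 2.91% of all genes called higher and 5.54% called lower. *Ramp2* had a log2 fold change of -2.98 (SE 0.54, adjusted p = 0.00712). The median over the 44 genes was -1.8 with 41 below 0. Without the library labelled tdT+ SCA-1neg replicate 2 the balance changed: 20 genes were below 0, 7 were called higher and 2 lower, beside 3.29% and 4.82% of all genes. The added genes were *Pecam1*, *Emcn*, *Tie1*, *Nos3*, *Myct1* and *Fabp4*, and *Sox7*, *Gpihbp1* and *Prox1* were no longer called. Without tdT+ SCA-1neg replicate 3, 16 were called, 14 of them lower, beside 2.28% of all genes called higher and 6.57% lower. The direction of the genes between these groups thus differed with the SCA-1neg libraries kept.

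The difference between the tdT effects of SCA-1+ and SCA-1neg cells was tested itself, as an interaction. It was called for *Cd34*, at -3.31 (SE 0.43, adjusted p = 0.0132), *Ramp2*, at -5.41 (SE 0.77, adjusted p = 0.0189), and *Sox17*, at -9.81 (SE 1.56, adjusted p = 0.033), all with a lower tdT effect in SCA-1+ cells. In that direction 0.379% of all genes were called, and no listed gene was called in the other direction (0.00985% of all genes). The median over the 44 genes was -6.31. The call of *Sox17* was kept in 4 of 11 fits that left out a library and lost with the replicate block (adjusted p = 0.0689). The same 3 genes were called without the library labelled tdT+ SCA-1neg replicate 2. The count was 25 without tdT+ SCA-1neg replicate 3, beside 1.76% of all genes called lower. It was 1 without tdTneg SCA-1neg replicate 3 or tdT+ SCA-1+ replicate 1 (0.154% and 0.179% of all genes). It was 0 without tdTneg SCA-1neg replicate 1 (0.114%) or tdTneg SCA-1+ replicate 1 or 2 (0.0838% and 0.00409%).

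A further 30 endothelial genes that are not among the 44 were summarized beside them. They summed to 5950 and 6040 normalized CPM in SCA-1+ tdTneg cells, 979 to 1180 in SCA-1+ tdT+ cells, 1280 to 1430 in SCA-1neg tdTneg cells, 1210 and 1680 in tdT+ SCA-1neg replicates 1 and 3 and 2580 in the library labelled tdT+ SCA-1neg replicate 2. In SCA-1+ cells 8 of the 30 fell with tdT and none rose, with a median of -3.76, beside 2.06% of all genes called lower. Among tdTneg cells 12 rose with SCA-1 and none fell, with a median of 3.52, beside 3.29% of all genes called higher. *Sele*, which encodes E-selectin, measured 1210 and 1120 normalized CPM in SCA-1+ tdTneg cells, 18.7, 63.5 and 32.7 in SCA-1+ tdT+ cells, 3.63, 2.11 and 3.71 in SCA-1neg tdTneg cells and 0.814, 395 and 0.826 in SCA-1neg tdT+ cells. *Selp*, which encodes P-selectin, stored with VWF in venular endothelium, was at 1350 and 1320 normalized CPM in SCA-1+ tdTneg cells, 33.1, 51.3 and 52.1 in SCA-1+ tdT+ cells, 1.8, 1.93 and 2.71 in SCA-1neg tdTneg cells and 1.22, 428 and 1.21 in SCA-1neg tdT+ cells. Both selectins were apart from all other libraries in SCA-1+ tdTneg cells, and *Selp* rose with SCA-1 among tdTneg cells (log2 fold change 9.28, SE 2.2, adjusted p = 0.0385). *Cav1* and *Efnb2*, named with the selectins for their mean CPM over all 11 libraries, did not follow the pattern: *Cav1*, the caveolar coat protein, was at 319 to 551 in all 11 libraries, and *Efnb2*, an ephrin of arteries and of epithelia, was highest in tdT+ SCA-1neg replicate 3, at 846. Pericyte and smooth muscle genes summed to 211 and 316 in SCA-1+ tdTneg cells and 319 to 490 in SCA-1neg cells, where most of it was *Cspg4*, and *Rgs5*, which defines pericytes, had no count in either SCA-1+ tdTneg library. The smooth muscle gene *Tagln* was highest there, at 2.53 and 3.31 against at most 1.28 elsewhere, and *Acta2*, smooth muscle actin, had its highest value of 18 in 1 of these libraries. The part of such cells was not tested.

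**Figure D5:**
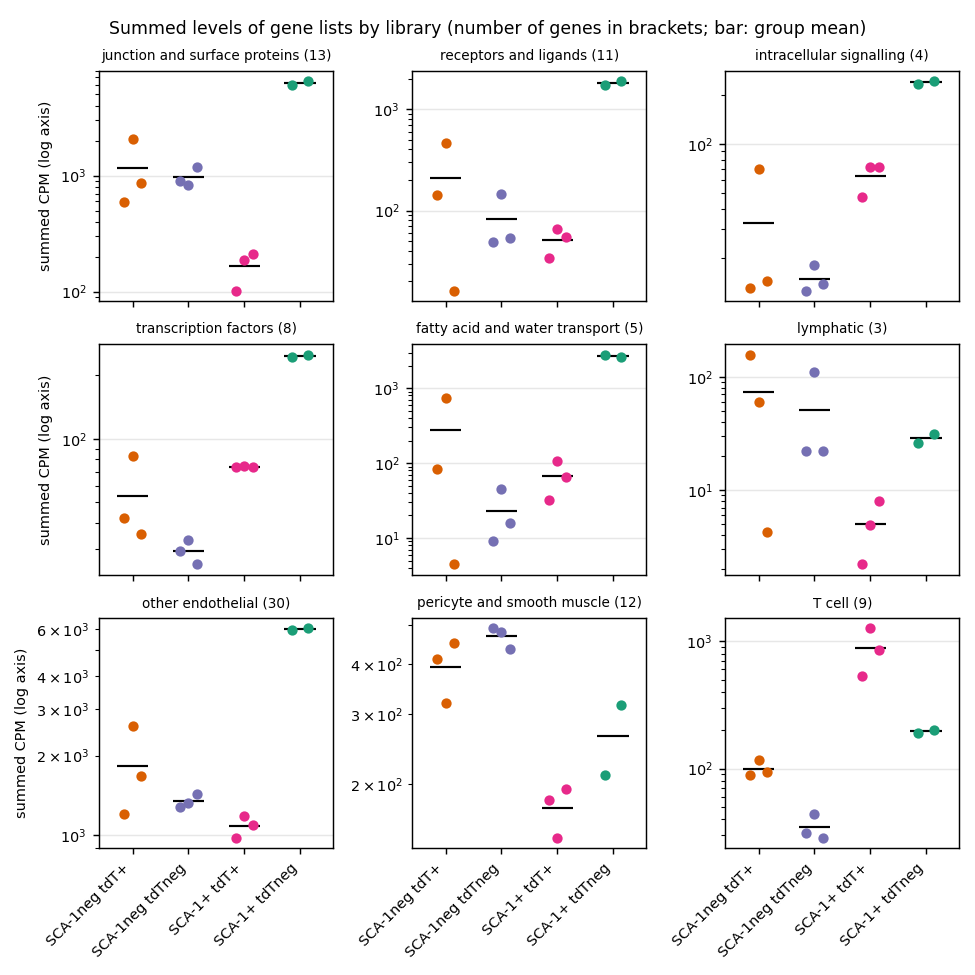
Summed normalized CPM (log axes that differ between panels) of the 6 roles of the 44 endothelial cell genes and of 3 other lists, 1 point per library by sorted group, with bars at the group means. The sums of all roles but the lymphatic one are highest in SCA-1+ tdTneg cells, and the T cell sum is highest in SCA-1+ tdT+ cells. The pericyte and smooth muscle sum is highest in SCA-1neg cells, where most of it is *Cspg4*.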

How the data were processed

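Counts are whole-number reads per gene as deposited, 1 table per library. Per the labels and the methods, the authors made TruSeq RNA v2 libraries, converted the reads with bcl2fastq 2.20.0.422, aligned them to mm10 with STAR and counted them with featureCounts on Ensembl 96 genes. The strand setting is not given in the sources used here. All 55536 IDs were matched to symbols of GENCODE M21, and 1 row that names no Ensembl gene was kept out of library sizes and tests.

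From the counts, edgeR 4.0.16 (R 4.3.3) was run with TMM factors (0.89 to 1.05), filterByExpr, a mean per group over all 11 libraries and its quasi-likelihood test (common BCV 0.61). A gene was called at a Benjamini-Hochberg adjusted p under 0.05 over all 20307 genes tested and an absolute log2 fold change above 1. DESeq2 1.42.0, limma 3.58.1 (voom with library weights), other filters and scalings, the groups compared alone, a replicate block and leaving out each library were alternatives. The members and lists were chosen with earlier results of these data known. After the files were seen, *Ctgf* was renamed *Ccn2* and *Ccl21a*, which has 2 IDs, was dropped from the other lists. Values in every library are given for *Cd34*, the lymphatic genes and the up to 4 genes of each role with the highest level per kb. Total counts of 17409131 to 46542177 set a floor of 3 counts at 0.0645 to 0.172 CPM, which covers counting error only. Libraries pooled 2 mice each. The methods describe 3 biological replicates of 2 mice, from which the 4 populations were sorted, so same-numbered libraries may come from the same mice, and they share an age. The distances of libraries from their group means correlated with a median of 0.08 (-0.42 to 0.59) over 15 same-numbered pairs and -0.02 over 30 others. Values with the replicate block are given where they end a call.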

Additional observations from a re-analysis of the deposited data

Results flagged for a closer look

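The tdT effect of 3 endothelial cell genes differed between SCA-1+ and SCA-1neg cells by the test of the difference itself in edgeR, beside 0.379% of all genes called in that direction. On the log2 scale the effect in SCA-1+ minus that in SCA-1neg cells was -3.31 for *Cd34*, -5.41 for *Ramp2* and -9.81 for *Sox17*. The call of *Sox17* was lost with the replicate block (adjusted p = 0.0689), and none of the 3 was called without tdTneg SCA-1neg replicate 1 or without either tdTneg SCA-1+ library. For *Sox17* the SCA-1neg tdTneg libraries were at or near 0, at 0.0206, 0.0791 and 0 normalized CPM, so that its value depends on the prior count and is no bound.

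A row that names no Ensembl gene and entered no comparison had a median of 238 CPM over the 6 tdT+ libraries, above the 2.54 to 4.89 CPM of the 5 tdTneg libraries. The library labelled tdT+ SCA-1neg replicate 2 was at 2.05 CPM, from 37 counts. What the row counts is not stated in the sources used here.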

How the results depend on the processing

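The main counts of called genes were 7 for tdT in SCA-1+ cells, 0 for tdT in SCA-1neg cells, 16 for SCA-1 in tdTneg cells, 6 for SCA-1 in tdT+ cells and 3 for the difference of the tdT effects. In that order of comparisons, keeping every gene with a count in any library gave 35, 1, 35, 9 and 34, and voom with library weights gave 33, 1, 38, 6 and 27. The all-gene shares moved too: in the first comparison 2.06% were called lower in the main fit, 1.96% with any count, 4.03% with voom and 4.56% with DESeq2, in the third 3.29%, 2.45%, 8.79% and 6.2% were called higher, and in the fifth 0.379%, 1.34%, 2.93% and 3.53% lower. In the fourth DESeq2 called 11.2% lower, against 5.54%. DESeq2 gave 20, 1, 19, 8 and 19, with 12 of the 16 genes among the 19 of the third. With the groups compared alone the first and the third were 36 and 34. RLE scaling, a minimum of 10 counts in 2 libraries and dropping the fold threshold left each count within 1.5 times the main one. Leaving out 1 library gave ranges of 2 to 24, 0 to 0, 1 to 33, 4 to 16 and 0 to 25. In these fits the share of all genes called lower ran from 0.397% to 3.1% in the first comparison and from 0.00409% to 1.76% in the fifth. The share called higher in the third ran from 0.222% to 4.57%. The cause of these shifts was not tested.

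With a replicate block the counts were 6, 0, 17, 5 and 2, beside 1.82% of all genes called lower in the first comparison and 2.94% called higher in the third. The block ended the calls of *Tek*, *Rgcc* and *Tcf15* in the first comparison, *Cd34*, *Ramp2* and *Erg* in the third, *Prox1* in the fourth and *Sox17* in the fifth, and no other main call. It added *Robo4* and *Lyl1* in the first and *Esam*, *Cd93*, *Vwf* and *Lyl1* in the third.

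Between SCA-1+ and SCA-1neg tdTneg cells, *Prox1* and *Flt4* changed sign in some fits and *Lyve1* reached 0, none of them called. Leaving out 1 library gave -1.26 to 0 for *Lyve1* (the latter without tdTneg SCA-1+ replicate 1), -2.33 to 0.93 for *Prox1* and -0.46 to 0.54 for *Flt4* (the highest of both without tdTneg SCA-1neg replicate 2). With voom *Prox1* was at 0.46 and *Flt4* at 0.4.

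With 2 or 3 libraries a group, the 95% interval of a log2 fold change had a median half-width of 1.02 for tdT in SCA-1+ cells over all genes. Apart from *Cd34*, *Rgcc* and *Sox7*, the listed genes had wider intervals there, such as -8.27 to -1.52 for *Pecam1* and -9.85 to -1.69 for *Vwf*.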
